A study of Mus musculus with 2 samples.

Results

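The complement components described here were 7 genes, C1qa, C1qb, C1qc, C3, C4b, Cfb and Cfp. They were taken by name, as the recognition subunits of the classical pathway and the main components of the cascade that macrophages can make. No cut on their values was used, but earlier results of these data were known when they were chosen. Values were read for 5 of the 7, in matrices that named 19537 genes. Cfb was named in both matrices with missing values in place of counts, and the level of C3 was not analysed here. CD11b+CD45int microglia had been sorted from brains of mice that were PARK7/DJ-1 knockout (KO) or wildtype, and were captured by Drop-seq, which counts transcript molecules in droplets through unique molecular identifiers (UMIs). All mice had been injected peripherally with lipopolysaccharide (LPS), a bacterial membrane component, 24 h before. Each genotype gave 1 library, drawn as KO LPS and WT LPS in the plots, which pooled 1 female and 1 male mouse. The knockout line carries a gene-trap allele of Park7 in every cell and was backcrossed to C57BL/6NCrl, and its adult wildtype controls were littermates. No untreated library was used here, so the response of a gene to LPS was not measured. There was no replicate library, no test between genotypes was made, and genotype and library cannot be told apart.

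Complement is a cascade of plasma and tissue proteins that tags targets for uptake by phagocytes. In the classical pathway, C1q, a hexamer of trimers built from the A, B and C chains that C1qa, C1qb and C1qc encode, binds a target and activates proteases which cleave C4 and then C3, while the alternative pathway amplifies C3 cleavage through factor B (Cfb) and properdin (Cfp). Microglia are a main source of C1q in the brain and produce it without stimulation, and C1q and C3 are known for tagging synapses that microglia remove. C3, C4b and Cfb are known as genes that inflammatory stimuli induce.

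The 3 C1q genes lie side by side on chromosome 4 on the minus strand, in the order C1qb (136880126 to 136886200), C1qc (136889801 to 136892936) and C1qa (136895916 to 136898844). These positions are those of RefSeq on GRCm38.p6. The cluster spans 18719 bp, with gaps of 3600 and 2979 bp between neighbours, and no other gene overlaps the C1q genes. C4b lies on chromosome 17 (34728139 to 34743902) near its close copy C4a (34809092 to 34823460), which RefSeq lists as a transcribed pseudogene, so that the counts of C4b may hold reads of C4a. Cfb lies on the same chromosome (34856374 to 34862514), as does C3 (57203967 to 57228136). Cfp lies on chromosome X (20925454 to 20931555). The RefSeq promoter table held 4 of the 7 members. Those of C1qb and C1qc are shown because both genes were among the most abundant transcripts and stood in nearly the same ratio to each other in both libraries. Each sequence is the 250 bases before the table's start site, 5' to 3' along the gene's strand, at chr4:136886201-136886450 for C1qb and chr4:136892915-136893164 for C1qc.
C1qb promoter: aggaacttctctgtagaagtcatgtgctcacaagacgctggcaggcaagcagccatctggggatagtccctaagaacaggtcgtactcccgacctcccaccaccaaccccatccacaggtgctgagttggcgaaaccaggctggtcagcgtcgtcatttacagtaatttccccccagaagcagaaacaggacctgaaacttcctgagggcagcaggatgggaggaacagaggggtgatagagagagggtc
C1qc promoter: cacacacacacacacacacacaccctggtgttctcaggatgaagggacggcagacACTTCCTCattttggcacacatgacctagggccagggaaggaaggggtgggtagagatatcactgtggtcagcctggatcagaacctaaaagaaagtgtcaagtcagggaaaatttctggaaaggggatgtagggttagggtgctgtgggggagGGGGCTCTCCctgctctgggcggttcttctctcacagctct
Capitals mark matches to the 5 motifs searched on both strands. The C1qc window held an NF-kB consensus from 41 to 32 bases before the start site and, on the opposite strand, a PU.1 site (GAGGAAGT) from 195 to 188 bases before it. The C3 window held a C/EBP site from 45 to 38 bases before its start site, and the C1qb and Cfp windows held none of the 5. Of 32851 promoters of the same length, 7.25% held the NF-kB consensus, 2.44% the PU.1 site, 7.02% a STAT site (TTCNNNGAA), 2.98% an interferon-stimulated element (GAAA, any 2 bases, GAAA) and 9.56% a C/EBP site (TTGCNNAA). A match is a description of these letters only.

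Cells were the barcodes with at least 500 UMIs and at least 100 genes, which left 320 and 1427 of 9999 barcodes in the KO and wildtype libraries. The matrices held 684738 and 3063795 UMIs, of which 55.7% and 64.9% lay in cells, and the median cell held 963.5 and 1065 UMIs. The libraries shared 11 barcodes, none of them cells of both. Park7 itself was counted once in the KO cells and 323 times in the wildtype cells, in the direction of the labels. All 10 microglia markers listed were present, and their summed level was 27479 CPM (UMIs per 1e6 UMIs of the cells of that library) in the KO library against 14265 CPM in the wildtype library. The 4 neutrophil markers with values were counted 0 times in the KO cells and 136 times in the wildtype cells. Of these 136 UMIs, 52 came from 1 cell. Choroid plexus markers stood at 2119 CPM in the KO library against 14.6 CPM, and 734 of their 808 UMIs in the KO library came from 1 cell. Endothelial markers summed to 86.5 CPM in the KO library against 15.1 CPM, a ratio of 5.74 (3.39 to 9.74). Of their 33 UMIs in the KO library, 17 came from 1 cell. Border macrophages also express C1q, and their markers summed to 62.9 against 18.6 CPM, a ratio of 3.38 (1.94 to 5.81). That rise was of Mrc1 alone, with 24 UMIs in the KO library and 21 in the wildtype library. Cbr2, Pf4, Cd163 and Lyve1 had 0 UMIs in the KO library against 12, 2, 1 and 1. The part of these cell types in the C1q result was not tested.

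C1q transcripts were abundant in both libraries and lower in the KO library. C1qb, which encodes the B chain, stood at 3881 CPM in the KO library (95% exact Poisson interval 3686 to 4084, from 1480 UMIs) and at 5376 CPM in the wildtype library (5274 to 5478, from 10692 UMIs). It ranked 9 among all genes by level in the KO library and 8 in the wildtype library. C1qc, the C chain, stood at 3092 CPM (2918 to 3274) against 4110 CPM (4021 to 4200). C1qa, the A chain, stood at 2840 CPM (2674 to 3015) against 5298 CPM (5197 to 5400). In the KO library the order of levels was therefore C1qb, C1qc and C1qa, with the last 2 intervals overlapping, whereas in the wildtype library C1qb and C1qa had overlapping intervals and C1qc was lower. Because 3' UMIs count a transcript once, these levels were not divided by transcript length. All intervals in the text are 95% intervals and cover counting error only.

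**Figure D1:**
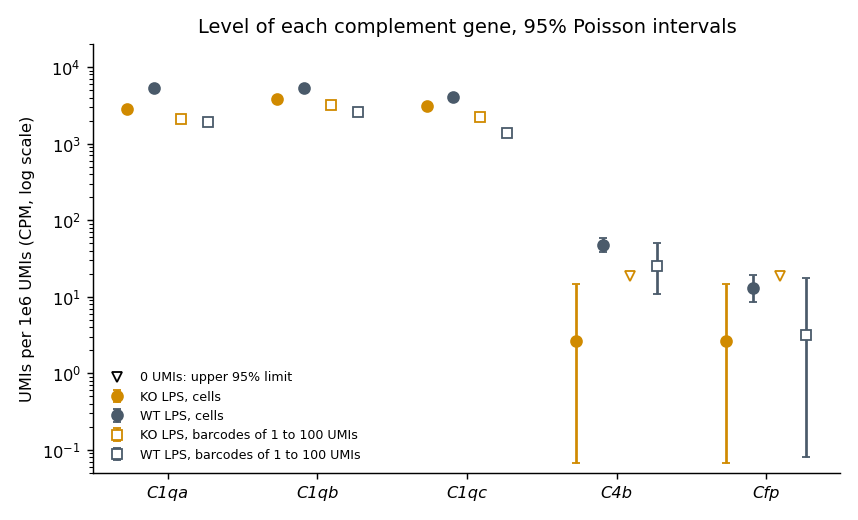
Level of the 5 complement genes with values, in UMIs per 1e6 UMIs on a log axis, for cells (filled circles) and barcodes of 1 to 100 UMIs (open squares) of the KO library (orange) and the wildtype library (grey). Bars are 95% Poisson intervals and triangles the upper limits at 0 UMIs. The C1q genes lie at or above 1356 CPM in every group, and C4b and Cfp with their intervals at or below 58.4 CPM.

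The ratio of the KO library over the wildtype library was 0.536 for C1qa (exact conditional binomial interval 0.503 to 0.571), 0.722 for C1qb (0.683 to 0.762) and 0.752 for C1qc (0.707 to 0.800). On the log2 scale these ratios were -0.90, -0.47 and -0.41. Summed over the 3 genes, C1q reached 9814 CPM (9502 to 10133) among KO cells and 14783 CPM (14615 to 14953) among wildtype cells, and the ratio was 0.664 (0.641 to 0.687). Each of the 3 ratio intervals lay below 1. Of 9085 genes whose joint count was 20 UMIs or more, 18.7% had an interval below 1. Of the 306 genes with 1000 UMIs or more, to which the C1q genes belong, 50.3% had an interval below 1 and 33.3% above 1. None of the C1q genes reached a 2-fold difference, which in the lower direction 15.3% of the 9085 genes and 21.2% of the 306 reached. The median log2 ratio was 0.03 over the 9085 genes and -0.20 over the 306.

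The 3 chains were not lower to the same extent. C1qa made up 28.9% of C1q UMIs in the KO library (Clopper-Pearson interval 27.5 to 30.4) and 35.8% in the wildtype library (35.3 to 36.4). C1qb made up 39.6% (38.0 to 41.1) and 36.4% (35.8 to 36.9), and C1qc 31.5% (30.0 to 33.0) and 27.8% (27.3 to 28.3). There were 0.732 UMIs of C1qa per UMI of C1qb in the KO library and 0.986 in the wildtype library, so that the ratio between libraries was 0.742 (0.683 to 0.807). For C1qc per C1qb it was 1.04 (0.959 to 1.13), an interval that includes 1. These quantities need no library total, because both chains come from the same cells. The C1qa to C1qb ratio between libraries was 0.812 in cells below 1000 UMIs, 0.744 in cells from 1000 to below 2000 UMIs and 0.655 in deeper cells, with each interval below 1. It was 0.711 (0.639 to 0.790) in cells with Xist UMIs and no Y-linked UMI, which stand for the female mice. In cells that held Y-linked but no Xist UMIs it was 0.754 (0.498 to 1.13), where the KO library had 12 cells. In the barcodes of 1 to 100 UMIs, which hold ambient RNA, it was 0.873 (0.740 to 1.03).

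**Figure D2:**
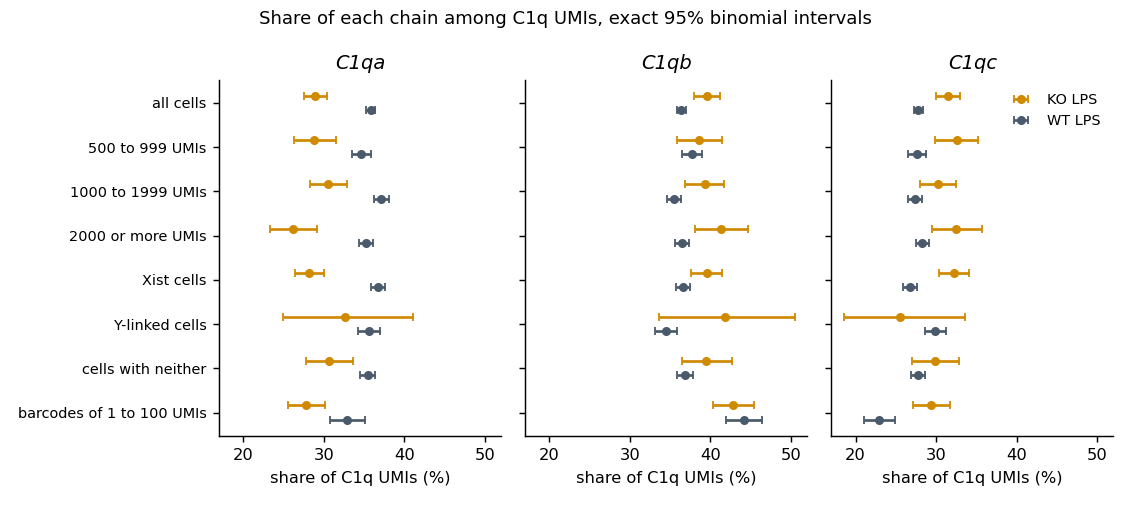
Share of C1q UMIs that each chain made up, in percent, for classes of barcodes (rows) in the KO library (orange) and the wildtype library (grey), with exact 95% binomial intervals. Over all cells C1qa lies at 28.9% in the KO library and 35.8% in the wildtype library, and the orange point is left of the grey point in every row of that panel.

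The summed C1q level differed between the libraries at every depth of cell. Below 1000 UMIs per cell, KO cells held 9612 CPM and wildtype cells 13155 CPM, which gave a ratio of 0.731 (0.687 to 0.777). From 1000 to below 2000 UMIs the ratio was 0.683 (0.648 to 0.719), and in cells of 2000 or more UMIs it was 0.604 (0.564 to 0.646). The deepest class stood at 9467 CPM in the KO library against 15680 CPM, so that the wildtype level was highest and the KO level lowest there. The Xist cells, 200 in the KO library and 565 in the wildtype library, gave a ratio of 0.687 (0.658 to 0.717). The Y-linked cells, 12 and 195, gave 0.634 (0.533 to 0.750), and the 99 and 587 cells with neither gave 0.681 (0.637 to 0.728).

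RNA composition of the cells moved with the C1q level. Malat1, a nuclear long noncoding RNA, and mitochondrially encoded transcripts made up 4.50% and 3.93% of cell UMIs in the KO library, and 4.12% and 5.16% in the wildtype library. When the cells of both libraries were ordered by this joint share and cut at 7.36% and 10.1%, C1q in the KO library was 12018, 9147 and 5452 CPM from the lowest to the highest class. In the wildtype library it was 16802, 16134 and 10842 CPM. The ratio of the KO library over the wildtype library was below 1 in each class, at 0.715 (0.683 to 0.749), 0.567 (0.534 to 0.602) and 0.503 (0.452 to 0.558). With mitochondrial, Malat1 and Gm26924 UMIs left out of the totals, the pooled ratio was 0.658. Transcripts of cytosolic ribosomal proteins made up 1.37% of UMIs in KO cells and 2.67% in wildtype cells, and their part in the C1q ratio was not tested.

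**Figure D3:**
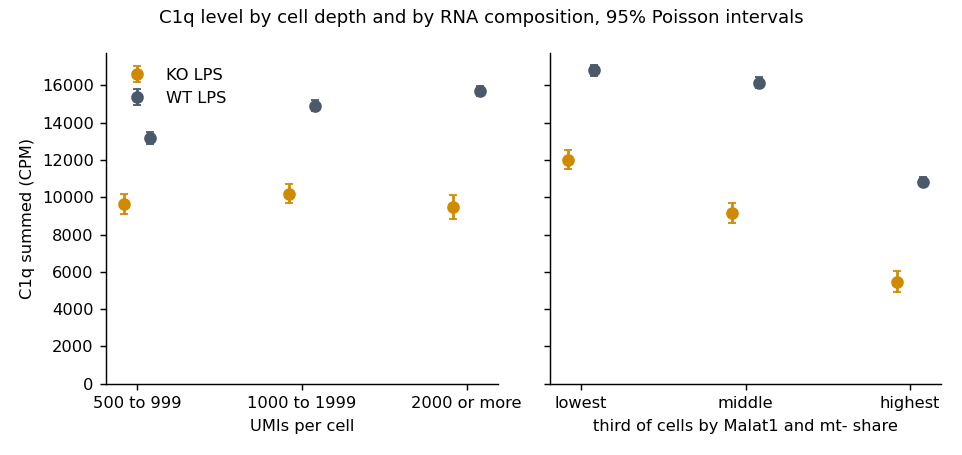
Summed level of C1qa, C1qb and C1qc in CPM, with 95% Poisson intervals, by UMIs per cell (left) and by class of the joint Malat1 and mitochondrial share of UMIs (right), in the KO library (orange) and the wildtype library (grey). The KO library lies below the wildtype library in all 6 pairs, and both libraries have their lowest level, 5452 and 10842 CPM, in the class richest in Malat1 and mitochondrial transcripts.

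Per cell, C1q was seen almost throughout. Every cell was thinned at random to 500 UMIs, which kept all cells. A UMI of any C1q gene was then found in 94.1% of KO cells (90.9 to 96.4) and 97.4% of wildtype cells (96.4 to 98.2). Without thinning these shares were 96.9% and 98.9%. If all 500 UMIs were ambient RNA, the shares would be 97.6% and 94.8%, so the share for the KO library was not above this ambient share. The ambient share assumes that a cell holds nothing but such RNA, and the cells led by markers of other types, pooled in each library, held less C1q than that. The shares of single chains lay further apart, although C1qb in the KO library was again below its ambient share. C1qa was present in 70.3% of KO cells against 84.1% of wildtype cells (ambient 64.7% and 62.2%), C1qb in 75.6% against 86.3% (ambient 79.8% and 72.9%), and C1qc in 75.9% against 80.2% (ambient 66.7% and 49.2%). All 3 chains were present together in 47.2% of KO cells (41.6 to 52.8) and 64.5% of wildtype cells (61.9 to 67.0). Ambient RNA alone at that depth would give 34.3% and 22.3%.

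The number of C1q UMIs per thinned cell averaged 4.80 with an SD over cells of 2.83 in the KO library, and 7.04 with an SD of 3.88 in the wildtype library. A droplet of ambient RNA alone would average 3.73 and 2.95 UMIs. The quartiles were 3 and 7 UMIs around a median of 5 in the KO library, and 4 and 10 UMIs around a median of 7 in the wildtype library. The distributions overlapped over most of their range. Of all pairs of 1 cell from each library, the the wildtype library cell had more C1q UMIs in 63.3%, the the KO library cell in 29.1%, and both had the same number in 7.58%. More than 10 UMIs were counted in 18.9% of cells of the wildtype library (269 cells) and in 2.19% of cells of the KO library (7 cells). This cut was the 95th percentile of the KO cells, so the KO share above it was small by that choice. The highest thinned cell held 14 UMIs in the KO library and 24 in the wildtype library. The variance over the mean was 1.67 in the KO library and 2.14 in the wildtype library. The pooled level did not rest on a few cells, since the 3 cells with most C1q UMIs held 3.77% and 2.72% of them.

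**Figure D4:**
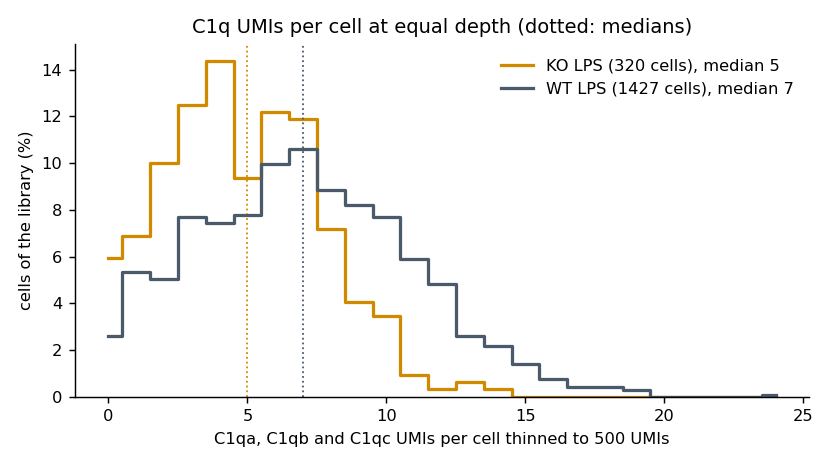
Percentage of cells of each library by the number of C1qa, C1qb and C1qc UMIs in the cell after thinning to 500 UMIs, for the KO library (orange, 320 cells) and the wildtype library (grey, 1427 cells), with dotted lines at the medians of 5 and 7. the wildtype library extends to 24 UMIs and the KO library to 14, and the distributions overlap up to 14 UMIs.

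Ambient C1q RNA was measured in the barcodes of 1 to 100 UMIs. Its level there was 7468 CPM in the KO library, which was 0.761 of the level in cells (0.716 to 0.808), and 5903 CPM in the wildtype library, or 0.399 of it (0.381 to 0.418). Cells led by the markers of other cell types gave another view of this background. The 4 such cells of the KO library, led by astrocyte, neuron, endothelial or choroid plexus markers, held 7 C1q UMIs of 7232 UMIs, or 968 CPM (389 to 1994), where ambient RNA alone would have given 54.0 UMIs. The 4 such cells of the wildtype library held 14 of 6937 UMIs, or 2018 CPM (1103 to 3386), where ambient RNA alone would have given 41.0, and 7 of the 14 lay in the cell led by neutrophil markers. In the choroid plexus cell of the KO library, 1 of 2723 UMIs was of C1q. C4b and Cfp had 0 UMIs in all 8 cells.

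Relative to other microglia genes the distance was wider. There were 357 C1q UMIs per 1000 UMIs of the 10 microglia markers in the KO library and 1036 in the wildtype library, and the ratio between libraries was 0.345 (0.333 to 0.357). The 10 markers were each higher in the KO library, with a summed ratio of 1.93 (1.88 to 1.97), so this ratio combines lower C1q with higher markers.

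The genes that varied most like C1q across thinned cells were named by Pearson's r of log-transformed UMIs, among genes with a UMI in at least 5% of cells. Points are cells of 1 library and share its library and ambient RNA. In the wildtype library (1427 cells, 1927 genes) these included Cst3 at r = 0.58, Ctss at 0.50, B2m at 0.40 and Actb at 0.40. In the KO library (320 cells, 1923 genes) they included Cst3 at 0.53, Itm2b at 0.32, Tmsb4x at 0.31 and Actb at 0.31. Malat1 was the most opposed in the wildtype library, at -0.47, and mt-Rnr2, a mitochondrial ribosomal RNA, in the KO library, at -0.33. Cst3, which encodes cystatin C, was higher in the KO library over all cells, with a ratio of 1.49 (1.46 to 1.53), in the direction opposite to C1q. Ctss, the lysosomal protease cathepsin S, and B2m, the light chain of MHC class I, were lower, at 0.760 (0.732 to 0.790) and 0.494 (0.459 to 0.532). Between the chains themselves, r was 0.26 for C1qa with C1qb, 0.31 for C1qa with C1qc and 0.28 for C1qb with C1qc in the wildtype library. In the KO library these values were 0.27, 0.13 and 0.17. The median over all pairs of widely seen genes was 0.02 in both libraries.

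C4b, the component that activated C1 cleaves, was a rare transcript, counted almost entirely in the wildtype library. It had 95 UMIs in 82 cells of the wildtype library, at 47.8 CPM (38.6 to 58.4), and 1 UMI in 1 cell of the KO library, at 2.62 CPM (0.0664 to 14.6). The ratio was 0.0549 (0.00138 to 0.313), and at the the wildtype library level 18.2 UMIs would have been counted in the KO library. C4b and Cfp were the 2 of the 5 members with values that reached a 2-fold difference in the lower direction, against 15.3% of genes, and for Cfp the interval reached above 1. Of the 82 cells with C4b in the wildtype library, 70 held 1 UMI and none held more than 3. At 500 UMIs per cell it was present in 2.52% of cells of the wildtype library (1.77 to 3.48, 36 cells) against 1.26% for ambient droplets, and in 0.313% of the KO library (1 of 320 cells) against 0. Unthinned, the shares were 5.75% and 0.313%. The barcodes of 1 to 100 UMIs held 8 C4b UMIs in the wildtype library (25.3 CPM), at 0.530 of the level in cells (0.223 to 1.09), and 0 in the KO library.

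C4b is also a gene of astrocytes, and the marker levels in the cells that held it were measured. The 82 cells had 14678 CPM of microglia markers, against 14217 CPM in the other cells of the wildtype library. Astrocyte markers stood at 188 CPM against 172 CPM, a ratio of 1.09 (0.762 to 1.53), and choroid plexus and fibroblast markers had 0 UMIs, with upper limits of the ratio of 1.17 and 20.8. Cd79b, the only B lymphocyte marker of the list with values, was higher in these cells, at a ratio of 2.87 (1.03 to 7.0) from 7 UMIs, while neutrophil markers were lower at 0.194 (0.0395 to 0.579) and neuron markers at 0.416 (0.150 to 0.932). Over the libraries, astrocyte markers were higher in the KO library (378 against 174 CPM), where 30 of their 144 UMIs lay in 1 cell. The part of astrocyte RNA in the C4b result was not tested. C1q was 1.08 times as high in the cells with C4b as in the others (1.04 to 1.12). These cells were deeper, with a median of 1485 UMIs against 1065 over all wildtype cells, and the wildtype C1q level was higher in deeper cells, so that the part of depth in this ratio was not tested. C4a, the close copy, had 8 UMIs in the wildtype library, 4 of them in these 82 cells, and 0 in the KO library.

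Set against the C1q genes, C4b gave the wider distance between the libraries. There were 0.267 C4b UMIs per 1000 C1q UMIs in the KO library (0.00676 to 1.49) and 3.23 in the wildtype library (2.61 to 3.95), and the ratio between them was 0.0827 (0.00207 to 0.472). With Cfb and C3 giving no values, the group of inducible components rests on C4b alone, and its value in the KO library on 1 UMI. The deeper cells of the KO library held no C4b UMI. In its 114 cells from 1000 to below 2000 UMIs it had 0, where the wildtype library had 37 UMIs. Against a floor of 3 counts C4b was 2.66-fold lower there, and the exact interval of the ratio reached up to 0.487. In the 34 KO cells of 2000 UMIs or more C4b also had 0, where the wildtype library had 34 UMIs. Against the same floor it was 1.40-fold lower, and the interval reached up to 0.926. In the Y-linked cells no comparison could be made, because the KO library had 14445 UMIs there and a count of 0 allows up to 208 CPM against 58.5 CPM in the wildtype library.

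Cfp encodes properdin, the plasma protein that stabilises the alternative pathway convertase. It had 26 UMIs in 24 cells of the wildtype library, at 13.1 CPM (8.54 to 19.2), and 1 UMI in the KO library, at 2.62 CPM. The ratio was 0.201 (0.00489 to 1.22), with 4.98 UMIs expected in the KO library at the the wildtype library level, so no difference could be detected with this many UMIs. At 500 UMIs per cell Cfp was present in 0.280% of cells of the wildtype library (4 cells, ambient 0.158%) and in 0 of 320 cells of the KO library, which by the floor of 3 counts allows up to 0.938% of cells to hold a UMI at that depth. Unthinned, the shares were 1.68% and 0.313%. Of the 24 cells of the wildtype library, 22 held 1 UMI and the other 2 held 2.

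Saa3, an acute-phase transcript with 8367 UMIs in the wildtype library and 0 in the KO library, was used to divide the wildtype cells. In thinned cells, C1q stood at 14226 CPM in the 1002 cells with 0 Saa3 UMIs, at 12932 CPM in the 216 with 1 or 2, and at 15011 CPM in the 209 with 3 or more, each without Saa3 in the total. C4b was present in 2.40%, 2.31% and 3.35% of these cells, with overlapping intervals. The cells with 0 Saa3 UMIs in the wildtype library thus had more C1q than the KO library, whose thinned level was 9600 CPM (9126 to 10092).

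Of 48 other genes of the complement system listed by role, 28 had values and 11 a joint count of 20 UMIs or more. Among these 11, the interval lay below 1 for 5, above 1 for 2 and across 1 for 4, where over all genes 18.7% lay below and 19.6% above. Over the genes with 1000 UMIs or more, to which some of the 11 belong, 50.3% lay below and 33.3% above. Their median log2 ratio was -0.27, against 0.03 over all genes. None of the genes of the C1r and C1s proteases, the lectin pathway or the other C components had 20 UMIs, so in these cells the cascade was measured at C1q, C4b and Cfp, at the inhibitors and at the receptors.

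C3ar1 and C5ar1, receptors for cleavage fragments of C3 and C5, were lower in the KO library, with ratio intervals that lay below that of summed C1q. C3ar1, the receptor for C3a, stood at 191 CPM among KO cells against 727 CPM among wildtype cells, a ratio of 0.263 (0.205 to 0.333). C5ar1, the main receptor for C5a, stood at 94.4 against 400 CPM, a ratio of 0.236 (0.164 to 0.329). C5ar2, the second C5a receptor, had a ratio of 1.33 (0.699 to 2.37) from 74 UMIs. Complement receptor 3, which binds C3 fragments on a target, is a pair of integrin chains. Its alpha chain Itgam stood at 1406 against 1876 CPM, a ratio of 0.749 (0.683 to 0.820), and its beta chain Itgb2 at 215 against 260 CPM, with an interval across 1 (0.647 to 1.05). Itgam encodes CD11b, on which the cells were sorted.

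Genes of proteins reported to bind C1q differed in both directions. Calr, calreticulin, a chaperone of the endoplasmic reticulum that binds C1q at the cell surface, stood at 1529 CPM in the KO library against 3187 CPM, a ratio of 0.480 (0.440 to 0.522). C1qbp, a mainly mitochondrial protein that binds the globular heads of C1q, stood at 60.3 against 131 CPM, a ratio of 0.461 (0.287 to 0.708). Lrp1, an endocytic receptor, was higher, at 383 against 211 CPM (ratio 1.82, 1.50 to 2.20). Of the membrane inhibitors, Cr1l, the rodent membrane inhibitor also called Crry, stood at 142 against 126 CPM, a ratio of 1.12 (0.820 to 1.51) whose interval includes 1.

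**Figure D5:**
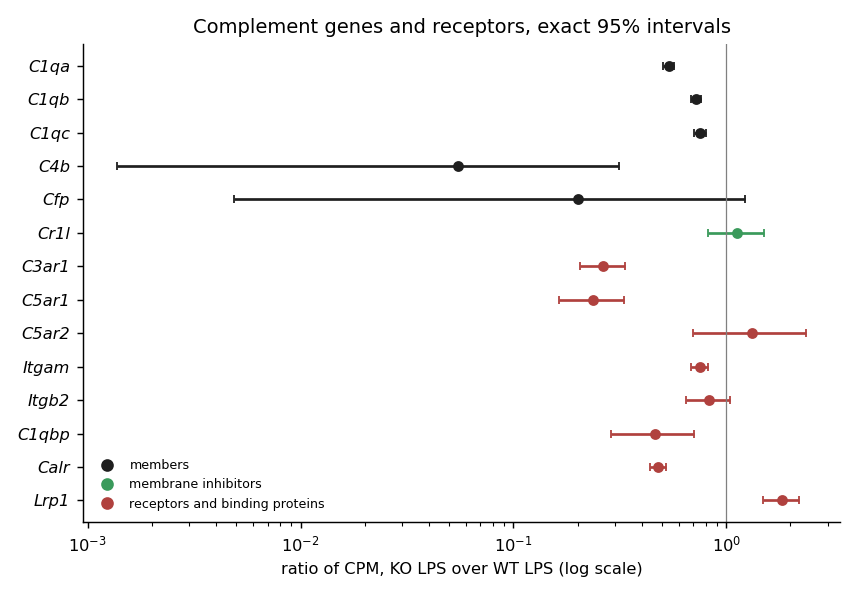
Ratio of CPM in the KO library over the wildtype library on a log axis, with exact 95% intervals, for the 5 members with values and the 9 receptors, binding proteins and membrane inhibitors with at least 20 UMIs, coloured by role, and a grey line at 1. The C1q genes, C4b, C3ar1, C5ar1, Itgam, C1qbp and Calr lie below 1 with their intervals, and Lrp1 above it.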

How the data were processed

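Drop-seq libraries of sorted microglia from PARK7/DJ-1 KO and WT mice, 24 h after LPS, were analysed with 1 library per genotype. The authors deposited raw UMI counts for each gene and barcode, not normalised, for 9999 barcodes per library. A gene with missing values in 1 library was read as 0 there. The submitters' processing notes name bcl2fastq 2.0 and STAR, and the builds mm9 and mm10, without saying which was used for what. Whether counting used the strand is not given in the sources used here.

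Cells were barcodes with at least 500 UMIs and 100 genes. The study called cells with DropletUtils, which was not repeated, and its stated number of cells is larger. Doublets were left in. UMIs were summed over cells and given as CPM with exact Poisson intervals. Ratios were given exact conditional binomial intervals and shares Clopper-Pearson intervals, all at 95% and for counting error only. For a gene at 0 UMIs, 3 counts were the floor. The median depth was 963.5 UMIs per cell in the KO library and 1065 in the wildtype library. Over the 381305 UMIs of the KO cells, a single UMI is 2.62 CPM. Cells were thinned without replacement to 500 UMIs for shares and correlations. MAST, which the study applied to cells, was left out, since the cells of a library do not replicate a genotype. All steps ran in Python 3.11.15 with scipy 1.17.1, pandas 2.3.3, numpy 2.4.6 and matplotlib 3.10.9. The ratio intervals were tested on simulated independent Poisson counts, the model they assume. Clustering of UMIs in cells was not simulated.

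The members, the 48 pathway genes and the marker lists were chosen with earlier results of these data known. Named were the 7 members, pathway genes whose joint count was 50 UMIs or more, the 5 genes most like C1q or C4b across cells, Park7 and Saa3. Some genes that this rule names are not reported here. Alternatives changed the cell threshold, thinning, weighting of cells, ambient RNA, deep cells, top cells, scaling and the mice of origin. One more, a total without mitochondrial, Malat1 and Gm26924 UMIs, was added after seeing the data.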

Additional observations from a re-analysis of the deposited data

Results flagged for a closer look

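Barcodes below the cell threshold, which the comparisons of cells do not use, held C1q at the opposite order of the libraries. In the barcodes of 1 to 100 UMIs the KO over wildtype ratio was 1.23 for C1qb (1.10 to 1.36), 1.62 for C1qc (1.41 to 1.85) and 1.26 for the 3 genes summed (1.18 to 1.35), while C1qa had 1.07 (0.943 to 1.21). In the barcodes above 100 UMIs and below the threshold it was 1.48 for C1qb (1.32 to 1.64), 1.52 for C1qc (1.32 to 1.75) and 1.26 for the sum (1.16 to 1.35), while C1qa had 0.808 (0.691 to 0.941). C1qa thus had the lowest of the 3 ratios in these barcodes, as it had in the cells. The cause of the opposite order was not tested.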

How the results depend on the processing

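The ratio of summed C1q stayed below 1 under all 12 alternatives, and 7 of the 12 lay inside its counting interval. It moved to 0.719 with barcodes of at least 100 genes and no UMI minimum (676 and 3618 cells), to 0.694 as a mean of single-cell CPM, to 0.639 after subtracting ambient RNA at 10% of UMIs, to 0.687 in Xist cells and to 0.634 in Y-linked cells. For C4b, 11 of 12 alternatives lay inside the interval. Thinning gave 0.121, single-cell means 0.105 and Xist cells 0.0971. Without the 3 cells with most UMIs, and with a minimum of 1000 UMIs, the KO library had 0 UMIs, and the upper bounds from the floor of 3 counts were 0.178 and 0.250. In Y-linked cells the upper bounds were 3.55 for C4b and 5.59 for C4b per C1q, which say nothing of direction. For Cfp, 10 of 12 lay inside its interval, and the upper bounds of 2.68 after thinning and 16.0 in Y-linked cells say nothing of direction either. No result reversed. Without a UMI filter on genes, 24.5% of genes were higher in the KO library by 2-fold or more, against 13.5% at 20 UMIs. For C3 and Cfb no alternative could be run. No paired analysis was possible because each genotype had 1 library. C4b and Cfp each rested on 1 UMI in the KO library, where 18.2 and 4.98 would have been counted at the wildtype level.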

Other observations

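Among the C1q genes, C1qc differed most between the cells that stand for the female and the male mice. Its KO over wildtype ratio was 0.828 (0.766 to 0.895) in Xist cells and 0.541 (0.377 to 0.753) in Y-linked cells, where the KO library held 36 C1qc UMIs in 12 cells. For C1qa these ratios were 0.528 and 0.581, and for C1qb 0.743 and 0.770. The difference between the sexes was not tested, and each sex of a genotype was 1 mouse.

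In the wildtype library the cells with C4b also held 4 of the 8 UMIs of C4a, a ratio of 8.60 over the other cells (1.60 to 46.2). Reads shared between the close copies cannot be told apart from both transcripts in 1 cell. The genes most like C4b across thinned cells reached only r = 0.10 (Sec11a), which in counts this sparse is no finding, and Cfp was too rare for such a list.

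In the cells of the wildtype library with Cfp, C1q was 1.16 times as high as in the others (1.09 to 1.24). The cells with Cfp were deeper, with a median of 1588 UMIs against 1065 over all wildtype cells, and the part of depth was not tested. Neutrophil markers in these 24 cells had 1 UMI and monocyte markers 1 UMI.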
